A study of Mus musculus with 8 samples.

Results

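The genes described here encode the folding machinery of the endoplasmic reticulum (ER) and the unfolded protein response. They are 33 of the 41457 genes listed in the deposited tables, were taken by symbol and not by their values, and all 33 had enough reads to be tested among 12590 genes. Poly(A) RNA was sequenced from keratinocytes (KCs), the epithelial cells of the epidermis, that had been prepared from the tail skin of adult wild-type mice, labelled C57BL/6 and given as C57BL/6J in the methods of the study. The cells were untreated and grew in a serum-free medium with 0.06 mM calcium, and 4 samples were harvested after 1 week and 4 after 3 weeks of culture. The study states that batches of KCs were shared between the culture times, and by the deposited preparation numbers this holds for 46, 49 and 90. Preparation 47 was analysed only at 1 week (replicate 2) and preparation 57 only at 3 weeks (replicate 3), so the times differ in these preparations too. How many animals went into each is not given in the sources used here. At both times these are explanted cells without dermis or other skin layers.

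Secreted and membrane proteins enter the ER through the Sec61 channel, where chaperones and disulfide isomerases help them to fold. When unfolded proteins accumulate, the membrane sensors IRE1α, PERK and ATF6 activate XBP1, ATF4 and the cleaved ATF6 fragment, which raise the transcription of chaperones, of factors of ER-associated degradation (ERAD) and of the translocation machinery. KCs use this machinery for adhesion proteins, matrix, proteases and lipid enzymes, and are known to engage it during differentiation.

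Between 13896807 and 20026084 exon reads were counted per sample at 1 week, and between 14096649 and 18127283 at 3 weeks. Values per sample are given as RPKM, a unit deposited by the authors in which exon reads are divided by exon length and by sequencing depth. Log2 fold changes, 3 weeks over 1 week, and adjusted p-values are from edgeR's quasi-likelihood test on the exon reads after TMM normalization for library composition, with a threshold of 0.05. Over all tested genes the median was 0.03 on this scale and -0.16 on the log2(RPKM + 0.1) scale, so RPKM values place the 3-week samples lower. Replicate 3 at 3 weeks stood apart, with 13.3% of its exon reads on the mitochondrial genome against 2.19% to 4.43% in the other 7 samples. The basal KC genes Krt5 (1938 to 6384 RPKM) and Krt14 (4465 to 7628 RPKM) were abundant in every sample. The summed RPKM of 6 basal markers was 12181 to 14439 at 1 week and 7105 to 8278 at 3 weeks, without overlap. Of them Krt5 fell by 1.32 (adjusted p = 0.00103, edgeR) and Itga6, an integrin gene, by 0.75 on the log2 scale (adjusted p = 0.0391, edgeR), and 4 did not pass. Within the shared preparations, with the preparation as a block, Itga6 did not pass (adjusted p = 0.09997, edgeR). The summed RPKM of 8 fibroblast markers was at most 6.998 and that of 5 endothelial markers at most 0.562. Of 6 markers of Langerhans cells and leukocytes, Cd207 was listed at 0 in all samples, and only Epcam, which also is an epithelial gene, was abundant (228 to 485 RPKM). Without it the summed level of the other 5 was at most 1.67 RPKM. The summed level of 6 melanocyte markers was 3.54 to 21.4 RPKM at 1 week and 1.65 to 5.94 RPKM at 3 weeks, and that of 5 suprabasal markers was 3.96 to 26.7 and 3.86 to 13.6 RPKM. None of the 6 melanocyte or 5 suprabasal markers was at 0 in all samples of either time. Of them Krt1 and Pmel fell. With the preparation block the suprabasal genes Lor and Flg were also lower (log2 fold changes of -2.23 and -5.57). So were the melanocyte genes Dct (-2.25) and Tyrp1 (-2.07), each with an adjusted p of at most 0.0201 (edgeR). The part of the basal and the other markers in the differences below was not tested, and in bulk RNA fewer cells of a type and less RNA per cell cannot be told apart.

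After 3 weeks of culture 11 of the 33 genes were lower and 3 were higher, while 19 did not pass the threshold. Within the 3 shared preparations, with the preparation as a block, 6 were lower and 5 higher. The falls were those of Hspa5, Hsp90b1, Pdia4, Pdia6, Sdf2l1, Creld2, Manf, Xbp1, Derl3, Sec61a1 and Ssr1. The rises were those of Eif2ak3, Dnajb9 and Syvn1. With the preparation block Hsp90b1, Pdia4, Derl3, Sec61a1 and Ssr1 did not pass, and Ern1 and Wfs1 passed as higher. In the same 6 samples without the block 9 were lower and 4 higher. Over all genes 3109 passed in either direction with the preparation block and 3860 in the same samples without it. With all 8 samples 4127 passed, so the shares that follow, which are of that fit, are no background for the block counts. With all 8 samples 32.8% of all tested genes passed the same threshold, 17.0% as lower and 15.7% as higher. Among the 33 genes 42.4% passed, 33.3% as lower and 9.09% as higher. Their median log2 fold change was -0.27, and 24 of them lay below 0. The RPKM values of the groups did not overlap for 17 of the 33, of which 15 were lower and 2 higher at 3 weeks. Over all tested genes such separation occurred in 37.0%, 26.2% as lower and 10.8% as higher. All 33 together took 0.916% to 1.12% of the exon reads of a 1-week sample and 0.660% to 0.777% of those of a 3-week sample, and these ranges were also apart when mitochondrial reads were left out (0.938% to 1.16% and 0.690% to 0.813%). The count of falls depended on the scale and on single libraries. On the log2(RPKM + 0.1) scale 17 genes were lower and 2 higher, with 1313 rises and 3089 falls over all genes in place of 1981 and 2146. Without replicate 2 at 1 week 6 genes were lower, and without replicate 4 at 1 week, replicate 1 at 3 weeks or replicate 2 at 3 weeks 7 were lower. Without the library with many mitochondrial reads 11 were lower and 4 higher.

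**Figure D1:**
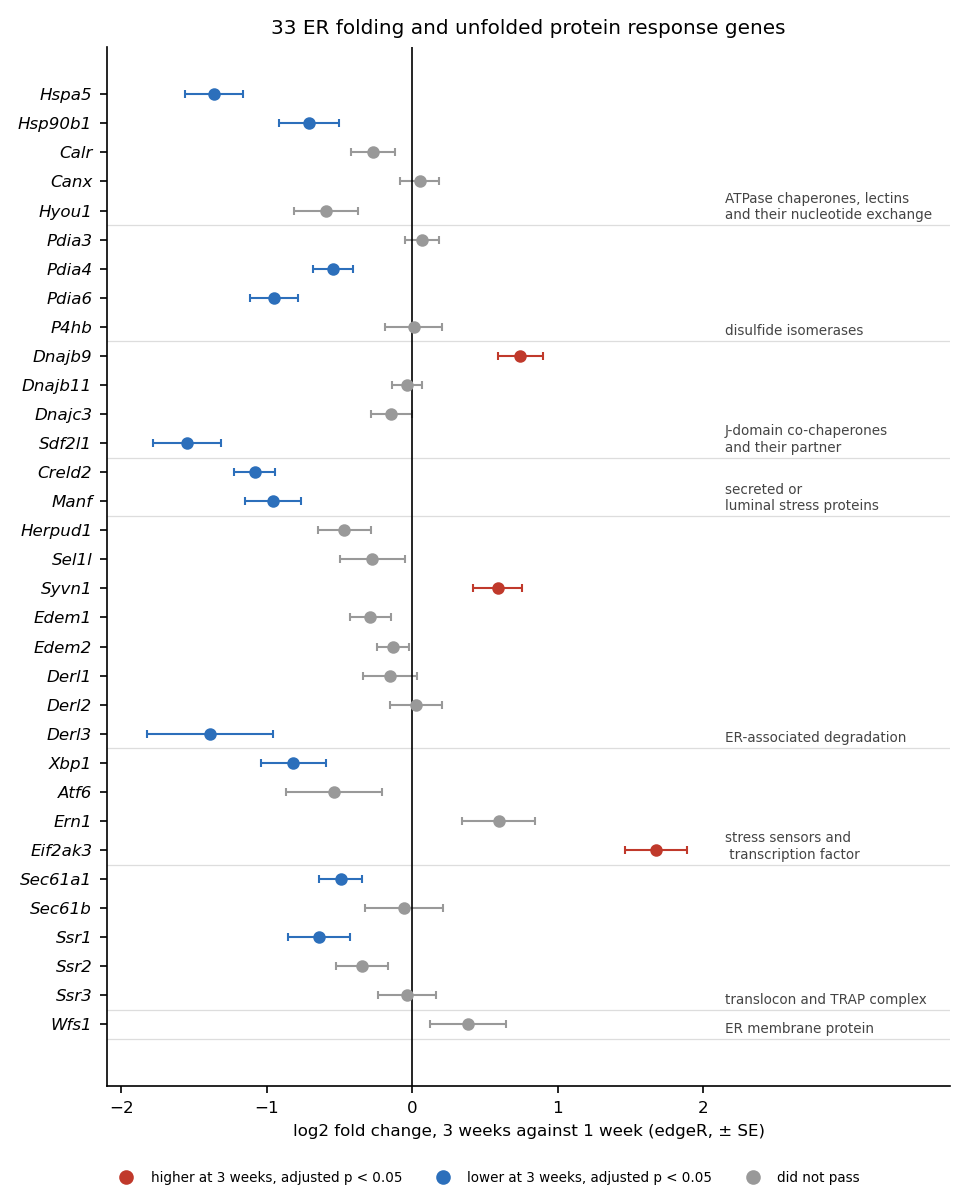
Log2 fold change of each of the 33 genes (3 weeks against 1 week, edgeR, horizontal axis), with bars for the standard error and genes grouped by role on the vertical axis. The 11 falls (blue) run from -1.55 for Sdf2l1 to -0.49 for Sec61a1, and the 3 rises (red) from 0.59 for Syvn1 to 1.68 for Eif2ak3.

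Several of these genes are known for the ER stress response element (ERSE) in their promoters, a CCAAT box, bound by NF-Y, and a CCACG block, bound by ATF6 and XBP1, separated by 9 bases. The sequences below are shown because they locate this element beside the genes that fell and those that did not. Promoters of 300 bases (250 before to 50 after the start) were taken from RefSeq on GRCm38.p6 and matched 27 of the 33 genes by symbol. The letters CCAAT and CCACG, 9 bases apart and read on both strands, were found in 39 of 32851 promoters (0.119%) and in the promoters of 9 of the 27 genes. Capitals mark the CCAAT box (ATTGG on the other strand) and the CCACG block (CGTGG on the other strand), and sequences are written 5′ to 3′ on the strand of the gene. The genes that fell come first, then Syvn1, which rose, then those that did not pass.
Hspa5, chr2:34772020-34772048, + strand: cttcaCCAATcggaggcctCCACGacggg
Hsp90b1, proximal, chr10:86705513-86705571, - strand: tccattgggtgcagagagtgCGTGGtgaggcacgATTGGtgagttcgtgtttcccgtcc
Hsp90b1, distal, chr10:86705618-86705676, - strand: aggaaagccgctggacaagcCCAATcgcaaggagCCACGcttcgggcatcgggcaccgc
Pdia6, chr12:17266471-17266529, + strand: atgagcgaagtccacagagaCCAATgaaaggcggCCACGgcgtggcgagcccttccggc
Creld2, chr15:88819500-88819558, + strand: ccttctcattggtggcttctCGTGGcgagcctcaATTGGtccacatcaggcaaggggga
Derl3, chr10:75893222-75893280, + strand: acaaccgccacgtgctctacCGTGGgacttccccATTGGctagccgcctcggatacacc
Syvn1, chr19:6046512-6046570, + strand: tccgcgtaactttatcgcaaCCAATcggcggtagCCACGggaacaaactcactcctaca
Calr, chr8:84847055-84847113, - strand: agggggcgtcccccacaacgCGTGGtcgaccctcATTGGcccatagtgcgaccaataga
Canx, chr11:50325780-50325838, - strand: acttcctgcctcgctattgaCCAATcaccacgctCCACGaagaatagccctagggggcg
Dnajc3, chr14:118937807-118937865, + strand: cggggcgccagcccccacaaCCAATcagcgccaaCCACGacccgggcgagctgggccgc

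The 10 matches lay between positions -212 and -26 from the RefSeq start, and Hsp90b1 held 2 of them. The Hspa5 stretch is shown short because an annotated exon of a longer transcript covers it. The other 9 stretches overlapped no annotated exon of their own gene, and exons of neighbouring genes were not checked. Of the 9 genes with a match 5 were lower, 1 was higher and 3 did not pass, with a median log2 fold change of -0.71. Of the 18 genes whose promoter held no match 4 were lower (Pdia4, Sdf2l1, Xbp1 and Ssr1), 2 were higher (Dnajb9 and Eif2ak3) and 12 did not pass, with a median of -0.05. The 18 include Herpud1 and Dnajb11, whose promoters hold the shorter ERSE-II described below. The 6 genes without a matched promoter are in neither set. Of them 2 were lower (Manf and Sec61a1) and 4 did not pass, with a median of -0.52. With the preparation block 3 of the 9 were lower and 1 higher (median -0.51), and 2 of the 18 were lower and 4 higher (median -0.20). Over all genes 3109 passed in either direction with this block, against 4127 with all 8 samples. A match is an exact string of letters and not a measured binding site, and variants of the string were not sought. Outside the 33 genes 28 further genes held the string, of which 9 were tested and 4 were lower (Adcy3, Alg12, Hnrnpa3 and Pan2). None of the 9 was higher in edgeR, DESeq2 or limma, and 0 were higher at an unadjusted p-value under 0.05 in edgeR. Over all tested genes 17.0% were lower and 15.7% higher in edgeR, and so few genes cannot be set apart from these shares. Alg12 encodes a mannosyltransferase that builds the N-glycan precursor in the ER.

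The shorter ERSE-II, in which ATTGG and CCACG are separated by 1 base, was found in 12 promoters (0.0365%), among them those of Herpud1 and Dnajb11. Neither gene passed the threshold. These are shown with the same capitals.
Herpud1, chr8:94386357-94386407, + strand: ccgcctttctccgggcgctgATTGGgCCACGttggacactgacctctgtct
Dnajb11, chr16:22857847-22857867, + strand: cggcgATTGGcCCACGcctgg
The unfolded protein response element TGACGTGG, which contains the CCACG block on its other strand and is known as a site of XBP1 and ATF6, was in 222 promoters (0.676%) and in 0 of the 27. CCACG alone was in 32.8% of all promoters and in 22 of the 27 genes, and CCAAT alone in 37.4% and in 22. For comparison, the 250 bases before the start are given for Sdf2l1, the gene that fell most, and for Eif2ak3, the gene that rose most. The Sdf2l1 stretch held 3 CCAAT boxes and 3 CCACG blocks at other spacings, and the Eif2ak3 stretch held 6 CCAAT boxes and 0 CCACG blocks.
Sdf2l1, chr16:17132384-17132633, - strand: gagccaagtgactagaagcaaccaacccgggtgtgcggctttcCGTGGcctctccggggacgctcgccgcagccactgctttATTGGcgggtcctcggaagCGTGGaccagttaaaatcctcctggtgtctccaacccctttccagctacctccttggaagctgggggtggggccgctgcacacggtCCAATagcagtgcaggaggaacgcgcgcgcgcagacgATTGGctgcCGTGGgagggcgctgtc
Eif2ak3, chr6:70844265-70844514, + strand: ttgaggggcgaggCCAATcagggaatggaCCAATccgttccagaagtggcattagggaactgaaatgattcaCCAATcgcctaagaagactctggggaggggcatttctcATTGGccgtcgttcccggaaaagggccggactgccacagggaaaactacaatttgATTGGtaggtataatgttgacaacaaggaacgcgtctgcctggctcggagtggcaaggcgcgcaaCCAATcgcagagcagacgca

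**Figure D2:**
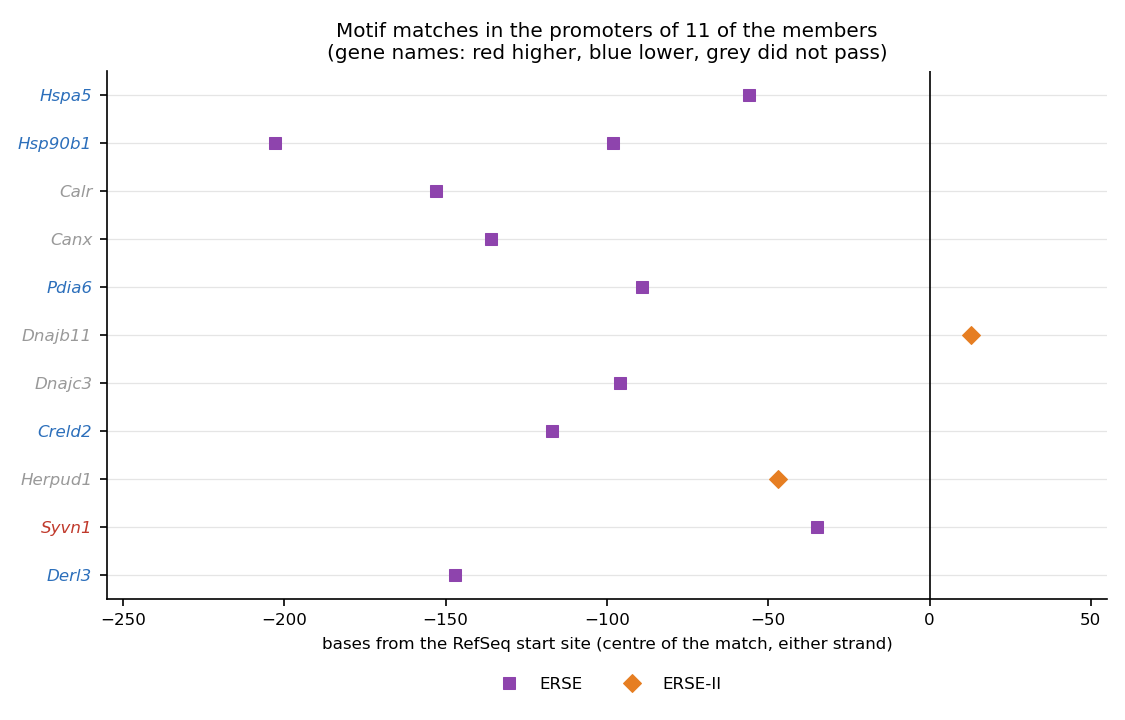
Position of each ERSE (squares) and ERSE-II (diamonds) match on the horizontal axis, in bases from the RefSeq start site, for the 11 genes with a match, listed on the vertical axis. Blue, red and grey names mark genes that were lower, higher or did not pass, and all 3 colours occur among the genes with an ERSE.

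Of the 5 ATPase chaperones, lectins and nucleotide exchange factors, 2 fell and 3 did not pass. Hspa5 (ENSMUSG00000026864, chromosome 2, 34771970 to 34777547, GRCm38) encodes BiP, the ER Hsp70 chaperone that also holds the stress sensors inactive. Its RPKM was 310, 398, 226 and 360 at 1 week (in the order of replicates 1 to 4, as in all such series here) and 125, 115, 84.7 and 128 at 3 weeks. Every 3-week sample was thus well below the lowest 1-week sample. The mean was 324 ± 74.6 RPKM at first and 113 ± 19.7 RPKM later (SD, n = 4), which is 2.57-fold lower by the fitted log2 fold change of -1.36 ± 0.20 SE (adjusted p = 0.0013, edgeR). Hsp90b1 (ENSMUSG00000020048, chromosome 10, 86690209 to 86705509) encodes GRP94, the ER Hsp90 chaperone, which folds integrins and other clients. Its RPKM was 143, 199, 146 and 191 at 1 week and 106, 90.2, 57.2 and 121 at 3 weeks. The groups did not overlap, and the log2 fold change was -0.71 ± 0.21 SE (adjusted p = 0.0292, edgeR). This call was lost without replicate 2 at 1 week, replicate 4 at 1 week or replicate 2 at 3 weeks, with adjusted p-values of 0.0767, 0.0778 and 0.0788. Hsp90b1 also lost it with the preparation block (adjusted p = 0.0780).

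Hyou1 encodes GRP170, the nucleotide exchange factor of BiP. It measured 26.2 to 41.7 RPKM at 1 week and 12.3 to 26.4 RPKM at 3 weeks, with ranges that just overlapped and a log2 fold change of -0.59 ± 0.22 SE (adjusted p = 0.0653, edgeR). It passed without replicate 4 at 3 weeks (adjusted p = 0.0321). Calr, which encodes the soluble lectin chaperone calreticulin, had the highest mean RPKM of the 33 genes at both times, 514 ± 38.0 at 1 week and 380 ± 44.4 at 3 weeks (SD, n = 4). Its values of 523, 539, 457 and 534 against 389, 427, 381 and 320 RPKM did not overlap, although the log2 fold change of -0.27 ± 0.15 SE did not pass after TMM normalization (adjusted p = 0.210, edgeR). Canx encodes calnexin, the membrane-bound counterpart, and its values overlapped (104 to 129 and 85.9 to 129 RPKM, log2 fold change 0.05 ± 0.14 SE). The sign for Canx was negative on the log2(RPKM + 0.1) scale.

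The order of levels changed with the fall of Hspa5. At 1 week the highest mean RPKM values after Calr were those of Hspa5 (324 ± 74.6), P4hb (316 ± 22.8), Pdia3 (241 ± 15.1) and Ssr3 (178 ± 11.1). Hspa5 and P4hb, its neighbour in this order, differed there by less than their SD. At 3 weeks Calr was followed by P4hb (283 ± 61.7), Pdia3 (226 ± 15.5), Ssr3 (153 ± 32.6) and Hspa5 (113 ± 19.7), and Hspa5 and the next gene, Canx (113 ± 18.6), were again within their spread. Derl3, Ern1, Eif2ak3 and Atf6 were the 4 lowest at 1 week, between 0.651 and 4.55 RPKM on average.

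Among the 4 disulfide isomerases, 2 fell and 2 did not pass. Pdia6 (ENSMUSG00000020571, chromosome 12, 17266545 to 17284770) encodes P5, an isomerase that associates with BiP. Its RPKM was 150, 169, 110 and 131 at 1 week and 70.3, 72.4, 60.7 and 55.7 at 3 weeks. The groups were separated, with a log2 fold change of -0.95 ± 0.17 SE (adjusted p = 0.00294, edgeR). Pdia4 (ENSMUSG00000025823, chromosome 6, 47796141 to 47813430) encodes ERp72, and measured 91.4, 115, 85.3 and 108 RPKM at 1 week and 68.5, 67.3, 47.5 and 62.6 RPKM at 3 weeks. It also fell without overlap, with a log2 fold change of -0.55 ± 0.14 SE (adjusted p = 0.0151, edgeR), although with the preparation block it was -0.44 and did not pass (adjusted p = 0.109). Pdia3 and P4hb, which encode ERp57, the partner of the lectin chaperones, and the classical protein disulfide isomerase, are more abundant. Pdia3 lay between 225 and 259 RPKM at 1 week and between 205 and 241 RPKM at 3 weeks. P4hb lay between 286 and 340 RPKM and later between 192 and 328 RPKM. Their log2 fold changes were 0.07 ± 0.12 SE and 0.01 ± 0.20 SE, and both were negative on the log2(RPKM + 0.1) scale. Pdia6 overlaps Atp6v1c2 on the opposite strand, which had 76 to 297 reads per sample against at least 3064 for Pdia6.

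Of the 3 genes of J-domain co-chaperones, which stimulate the ATPase of BiP, 1 rose and 2 did not pass, and the gene of a partner protein fell. Sdf2l1 (ENSMUSG00000022769, chromosome 16, 17130138 to 17132383) is no J-domain protein but forms a complex with Dnajb11 that acts on BiP clients. Its RPKM was 108, 110.2, 50.5 and 81.5 at 1 week and 26.5, 28.8, 24.7 and 27.0 at 3 weeks. The 1-week samples varied by a coefficient of variation of 31.9% and the 3-week samples by 6.30%, and the groups did not overlap. It showed the largest fall of the 33 genes, with a log2 fold change of -1.55 ± 0.23 SE (adjusted p = 0.00153, edgeR), 2.92-fold lower. Its partner Dnajb11 (ERdj3) measured 34.5 to 39.7 RPKM at 1 week and 26.9 to 34.5 RPKM at 3 weeks, ranges that met without overlapping, with a log2 fold change of -0.04 ± 0.10 SE (adjusted p = 0.817, edgeR). Dnajb9 (ENSMUSG00000014905, chromosome 12, 44205559 to 44210326), encoding ERdj4, which binds IRE1α and ERAD substrates, moved the other way. Its RPKM was 12.4, 14.9, 12.8 and 13.5 at 1 week and 18.7, 20.9, 22.9 and 17.0 at 3 weeks. All 3-week samples were above all 1-week samples, and the log2 fold change was 0.74 ± 0.15 SE (adjusted p = 0.00654, edgeR). Dnajc3, which encodes the co-chaperone p58IPK, overlapped between the groups (17.6 to 24.4 and 12.5 to 19.3 RPKM, log2 fold change -0.15 ± 0.14 SE).

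Both genes of small luminal or secreted stress proteins fell. Creld2 (ENSMUSG00000023272, chromosome 15, 88819646 to 88826683), encoding a secreted disulfide isomerase-like protein, measured 41.8, 42.5, 32.0 and 42.0 RPKM at 1 week and 16.8, 18.0, 16.6 and 15.3 RPKM at 3 weeks. The spread within each group was small beside the distance between them, and the log2 fold change was -1.08 ± 0.14 SE (adjusted p = 0.000795, edgeR), 2.12-fold lower. Manf (ENSMUSG00000032575, chromosome 9, 106838312 to 106891979), encoding a trophic factor that is retained in the ER by BiP, measured 95.5, 99.7, 68.3 and 93.1 RPKM at 1 week and 44.0, 46.2, 43.2 and 29.98 RPKM at 3 weeks. Its groups did not overlap either, with a log2 fold change of -0.96 ± 0.19 SE (adjusted p = 0.00555, edgeR). Manf overlaps Dcaf1 on the opposite strand and Rbm15b on its own, which had 482 to 1406 and 450 to 1118 reads per sample against 1552 to 7240 for Manf. A unique position was found for 87.8% of the Manf reads, and with these alone Manf also passed.

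**Figure D3:**
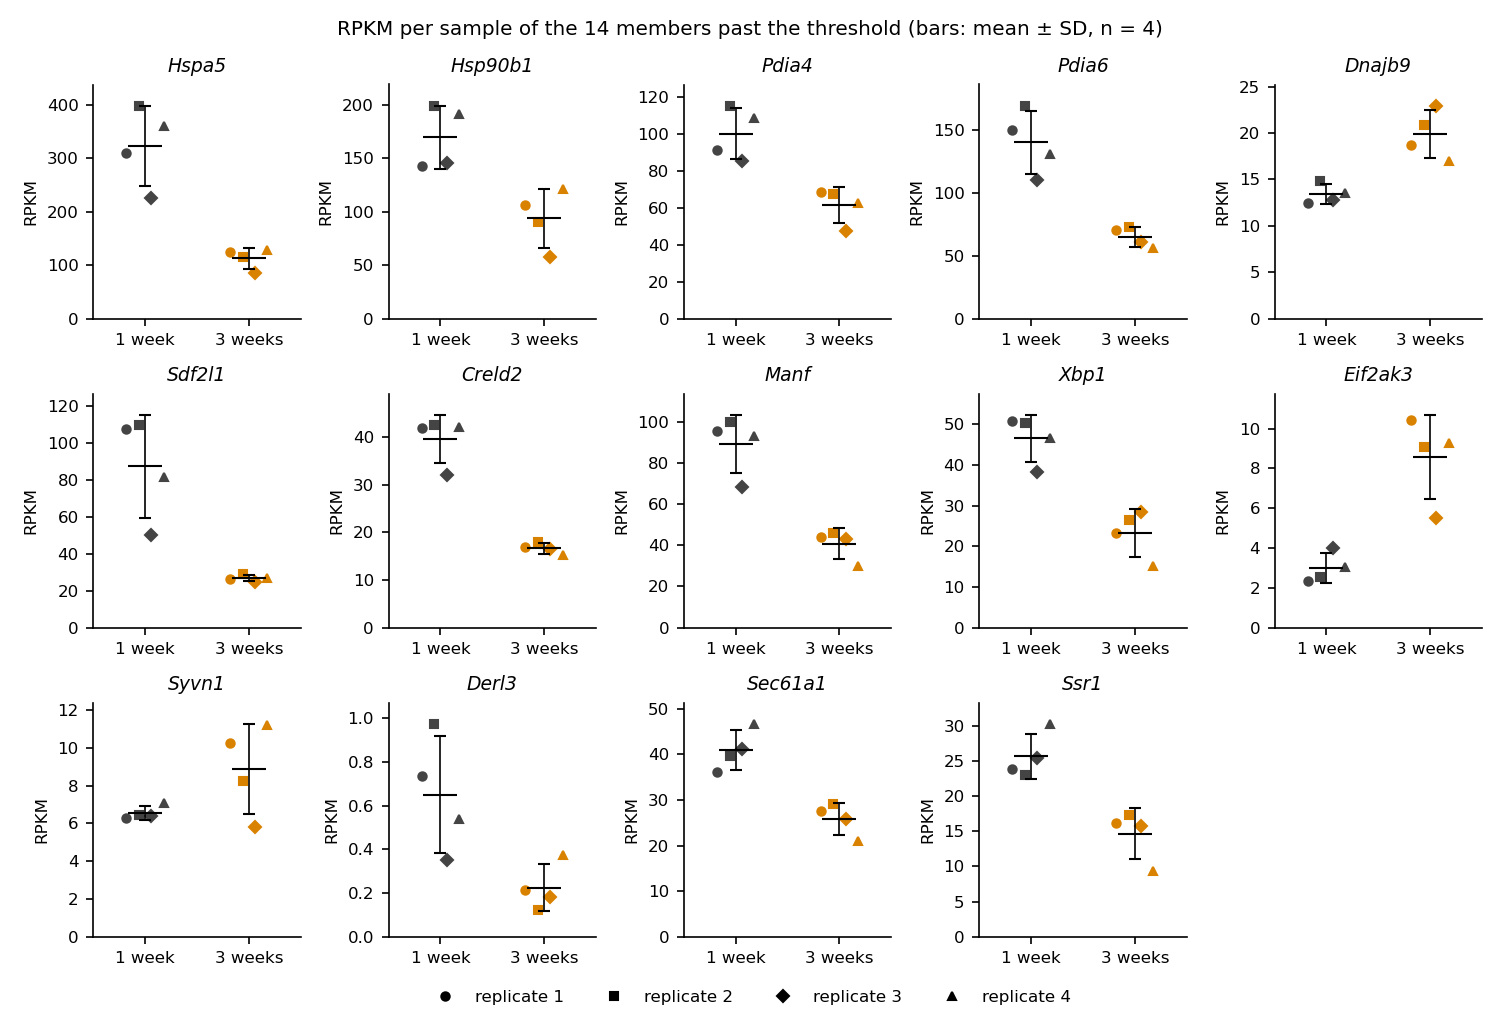
RPKM (vertical axis, from 0) in each 1-week (grey) and 3-week (orange) sample of the 14 genes past the threshold, with symbols for replicates 1 to 4 and bars for the mean ± SD (n = 4). Only Syvn1 and Derl3 overlap between the times, and the 1-week replicate 3 (grey diamond) is the lowest 1-week sample for Hspa5, Sdf2l1, Creld2, Manf and Xbp1.

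The 4 genes of the stress sensors and of their transcription factor differed from each other in direction. Eif2ak3 (ENSMUSG00000031668, chromosome 6, 70844515 to 70905245) encodes PERK, the kinase that phosphorylates eIF2α. Its RPKM was 2.32, 2.54, 4.01 and 3.05 at 1 week and 10.4, 9.08, 5.52 and 9.28 at 3 weeks. The groups did not overlap, and the lowest 3-week value was that of the library with many mitochondrial reads. The log2 fold change was 1.68 ± 0.22 SE (adjusted p = 0.000748, edgeR), 3.20-fold higher. Xbp1 (ENSMUSG00000020484, chromosome 11, 5520659 to 5525893) encodes the transcription factor that IRE1α activates by splicing its mRNA. It measured 50.8, 50.4, 38.3 and 46.6 RPKM at 1 week and 23.2, 26.5, 28.4 and 15.1 RPKM at 3 weeks. The groups did not overlap, and the log2 fold change was -0.82 ± 0.22 SE (adjusted p = 0.0211, edgeR). Without replicate 2 at 1 week the adjusted p-value was 0.0523, and without replicate 1 at 3 weeks it was 0.0559. These gene-level reads do not separate the spliced from the unspliced Xbp1 mRNA.

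Ern1, which encodes IRE1α itself, was low at both times, with 1.67, 2.77, 1.61 and 1.58 RPKM at 1 week and 2.80, 2.53, 1.55 and 3.52 RPKM at 3 weeks. Its log2 fold change of 0.59 ± 0.25 SE did not pass (adjusted p = 0.1004, edgeR). It passed without replicate 2 at 1 week (adjusted p = 0.03497) and without replicate 3 at 3 weeks (adjusted p = 0.0353), the samples that made the groups overlap. With the preparation block, which uses neither of these samples, the log2 fold change of Ern1 was 0.93 (adjusted p = 0.0221). Atf6 measured 4.27, 6.91, 3.03 and 4.00 RPKM at 1 week and 2.64, 2.52, 1.53 and 4.68 RPKM at 3 weeks, and its log2 fold change was -0.54 ± 0.33 SE (adjusted p = 0.238, edgeR). Without replicate 4 at 3 weeks, its highest 3-week sample, the adjusted p-value was 0.0437.

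Eif2ak3 was higher at 3 weeks, and most genes listed for its branch were lower. PERK raises the translation of ATF4, which in turn activates genes of amino acid supply and of feedback on eIF2α. Of 10 genes listed for this branch 9 were analysed here, and 7 of the 9 fell, 0 rose and 2 did not pass in edgeR (0 rose in DESeq2 or at an unadjusted p-value under 0.05), with a median log2 fold change of -1.36 against 0.03 over all tested genes. The list includes Eif2s1, which encodes the substrate of PERK, and Ppp1r15b, a constitutive subunit of the eIF2α phosphatase, which are not outputs of the branch. Of the other 7 genes, Atf4 among them, 5 fell, with and without the preparation block. With all 8 samples and no block 17.0% of all tested genes were lower. Over all genes 3109 passed in either direction with the block, against 4127 with all 8 samples. Asns, which encodes asparagine synthetase, measured 219, 225, 98.6 and 122 RPKM at 1 week and 58.3, 60.4, 57.1 and 40.2 RPKM at 3 weeks. Atf4 itself measured 228, 247, 126 and 163 RPKM and then 78.1, 68.9, 63.5 and 54.1 RPKM, a log2 fold change of -1.36 ± 0.23 SE (adjusted p = 0.00254, edgeR). For both genes replicates 1 and 2 were the higher 1-week samples, and all 3-week samples lay below all 1-week samples.

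The pseudokinase gene Trib3 had the largest fall of the branch, from 162, 188, 34.6 and 51.2 RPKM at 1 week to 21.0, 20.1, 17.1 and 11.5 RPKM at 3 weeks, and its log2 fold change was -2.48 ± 0.53 SE (adjusted p = 0.00758, edgeR). Its 1-week samples thus differed among themselves by more than replicates 3 and 4 did from the 3-week samples. Atf3, a stress-induced transcription factor gene, fell by 1.94 ± 0.34 SE on the log2 scale (adjusted p = 0.00289, edgeR). Chac1, whose product degrades glutathione, fell by 1.49, Asns fell by 1.45, Ppp1r15b (CReP) fell by 0.62 and Eif2s1 (eIF2α) fell by 0.52. Of these 7 genes Eif2s1 was the only one to lose its call when single samples were left out. It did so without any single 1-week replicate and without replicate 1, 2 or 4 at 3 weeks (adjusted p up to 0.108). Ppp1r15b did not pass with the preparation block (adjusted p = 0.0592). Ppp1r15a (GADD34) lay between 11.2 and 45.97 RPKM at 1 week and between 9.16 and 30.6 RPKM at 3 weeks, and Sesn2 between 25.6 and 32.8 and between 14.7 and 29.8 RPKM, and neither passed with all 8 samples. Without replicate 4 at 3 weeks the branch again had 7 genes lower. The Eif2ak3 reads and the reads of its branch come from the same 8 samples, and whether PERK acts on these genes here was not tested.

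**Figure D4:**
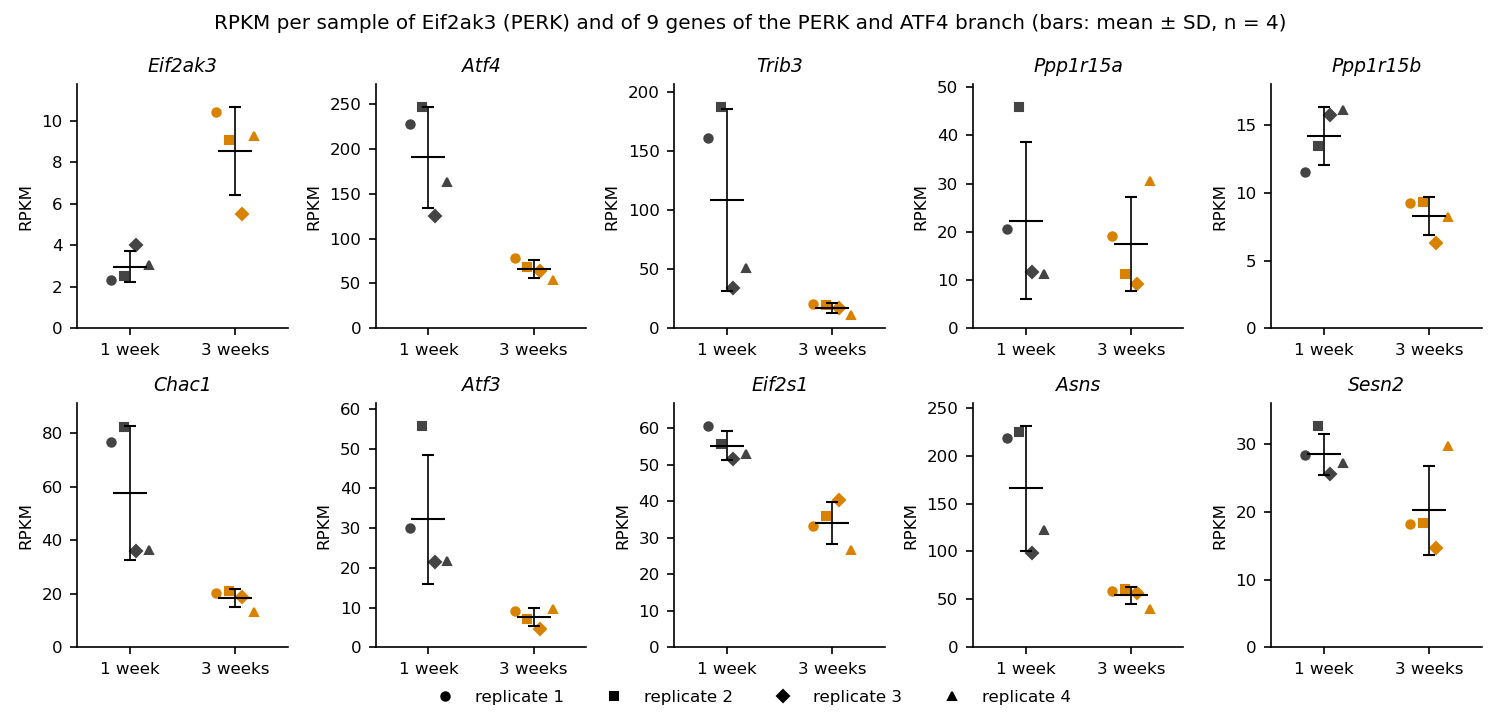
RPKM (vertical axis, from 0) of Eif2ak3 and of 9 genes of the PERK and ATF4 branch in each sample, with 1 week in grey and 3 weeks in orange, symbols for replicates and bars for the mean ± SD (n = 4). Eif2ak3 is higher in all 3-week samples, while Atf4, Trib3, Chac1, Atf3 and Asns are lower in all of them, with replicates 1 and 2 highest at 1 week.

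Of the 8 ERAD genes 1 rose, 1 fell and 6 did not pass. Syvn1 (ENSMUSG00000024807, chromosome 19, 6046576 to 6053712) encodes HRD1, the ubiquitin ligase of the retrotranslocation complex. Its RPKM was 6.31, 6.44, 6.39 and 7.10 at 1 week and 10.3, 8.28, 5.83 and 11.2 at 3 weeks. Replicate 3 at 3 weeks was below all 1-week samples and the other 3-week samples were above them. The log2 fold change was 0.59 ± 0.17 SE (adjusted p = 0.0262, edgeR), and on the log2(RPKM + 0.1) scale it was 0.39 and did not pass (adjusted p = 0.157, limma). The call was also lost without replicate 1, 2 or 3 at 1 week or replicate 1 at 3 weeks, with adjusted p-values of 0.0889, 0.0667, 0.0661 and 0.0726. Syvn1 overlaps Mrpl49 on the opposite strand, which had 284 to 417 reads per sample against 438 to 912 for Syvn1. Its cofactor gene Sel1l measured 11.6 to 17.5 RPKM at 1 week and 6.18 to 15.1 RPKM at 3 weeks, a log2 fold change of -0.27 ± 0.22 SE that did not pass.

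Derl3 (ENSMUSG00000009092, chromosome 10, 75893413 to 75895941), a derlin known from secretory cells, was the lowest of the 33 genes, with 4 to 40 reads per sample. Its RPKM was 0.738, 0.974, 0.350 and 0.540 at 1 week and 0.215, 0.122, 0.183 and 0.376 at 3 weeks, with an overlap between replicate 3 at 1 week and replicate 4 at 3 weeks. The log2 fold change of -1.39 carried a standard error of 0.43 (adjusted p = 0.0364, edgeR). This call rested on few reads and was lost without any one of replicates 1, 2 and 4 at 1 week or replicates 1, 2 and 3 at 3 weeks, with adjusted p-values of 0.0860, 0.101, 0.0601, 0.0885, 0.0962 and 0.0604. The preparation block gave 0.125. Its relatives were far more abundant. Derl1 measured 60.5 to 76.9 RPKM at 1 week and 39.6 to 63.9 RPKM at 3 weeks, and Derl2 10.1 to 10.9 and 7.04 to 11.1 RPKM, with log2 fold changes of -0.15 ± 0.19 SE and 0.03 ± 0.18 SE.

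Herpud1, whose product organises the HRD1 complex, measured 38.8, 38.6, 24.2 and 28.8 RPKM at 1 week and 18.2, 21.5, 19.8 and 24.9 RPKM at 3 weeks. Replicate 4 at 3 weeks exceeded replicate 3 at 1 week, and the log2 fold change of -0.47 ± 0.18 SE did not pass (adjusted p = 0.0772, edgeR). It passed without replicate 3 at 1 week (adjusted p = 0.0316). Edem1 and Edem2 encode mannosidase-like proteins that mark misfolded glycoproteins. Edem1 measured 21.2 to 23.2 RPKM at 1 week and 12.9 to 18.9 RPKM at 3 weeks, and Edem2 measured 13.96 to 16.9 and 12.0 to 13.3 RPKM. In RPKM neither gene overlapped between the groups, but their log2 fold changes of -0.29 ± 0.14 SE and -0.13 ± 0.11 SE did not pass after TMM normalization (adjusted p = 0.147 and 0.375, edgeR). Both passed on the log2(RPKM + 0.1) scale. Derl2 overlaps Mis12 on the opposite strand, with 372 to 744 reads per sample against 832 to 1670 for Derl2.

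Of 5 translocon genes 2 fell and 3 did not pass, and all 5 log2 fold changes lay below 0. Sec61a1 (ENSMUSG00000030082, chromosome 6, 88503579 to 88518905) encodes the pore subunit of the Sec61 channel. It measured 36.2, 39.7, 41.3 and 46.7 RPKM at 1 week and 27.6, 29.1, 25.9 and 21.0 RPKM at 3 weeks. The groups were apart, with a log2 fold change of -0.49 ± 0.15 SE (adjusted p = 0.0303, edgeR). Ssr1 (ENSMUSG00000021427, chromosome 13, 37966605 to 37994217) encodes TRAPα, of the complex that assists the insertion of some signal sequences. It measured 23.9, 23.02, 25.5 and 30.2 RPKM at 1 week and 16.2, 17.3, 15.7 and 9.30 RPKM at 3 weeks, also without overlap, with a log2 fold change of -0.64 ± 0.21 SE (adjusted p = 0.0457, edgeR). Both calls were close to the threshold. Sec61a1 lost it without replicate 2, 3 or 4 at 1 week or replicate 1 or 2 at 3 weeks (adjusted p between 0.0550 and 0.0867). Ssr1 lost it without any single 1-week replicate or without replicate 1 or 2 at 3 weeks (adjusted p between 0.0602 and 0.119). Neither Sec61a1 nor Ssr1 passed with the preparation block (adjusted p = 0.0758 and 0.0604).

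The other subunits were more abundant and did not pass. Ssr2 (TRAPβ) measured 109, 113, 102 and 107 RPKM at 1 week and 73.7, 86.2, 85.9 and 53.9 RPKM at 3 weeks. Its groups did not overlap in RPKM, and the log2 fold change was -0.35 ± 0.18 SE (adjusted p = 0.167, edgeR), passing without replicate 3 at 3 weeks (adjusted p = 0.0383). Ssr3 (TRAPγ) lay between 164 and 191 RPKM at 1 week and between 109 and 184 RPKM at 3 weeks, and Sec61b, the β subunit of the channel, between 75.8 and 81.5 and between 39.3 and 95.4 RPKM. Of the Sec61b reads 71.7% and of the Sec61a1 reads 81.4% had a unique position, so these values are less certain where near-identical copies exist. Wfs1, an ER membrane protein linked to calcium handling and to control of ATF6, measured 4.69 to 9.83 RPKM at 1 week and 5.10 to 12.0 RPKM at 3 weeks, and its log2 fold change was 0.38 ± 0.26 SE (adjusted p = 0.293, edgeR). Wfs1 passed with the preparation block, at 0.69 (adjusted p = 0.0494).

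The samples of a time point also differed from each other across the 33 genes. At 1 week replicate 3 had the lowest RPKM for 20 of the 33 genes and replicate 2 the highest for 18. After TMM normalization these counts were 24 and 14. At 3 weeks replicate 3 had the lowest RPKM for 16 genes, among them Hspa5, Hsp90b1, Hyou1, Pdia4 and Canx, and replicate 4 for 15, among them Calr, P4hb, Pdia6 and all 5 translocon genes. After TMM normalization these counts were 13 and 17. Replicate 3 was also the highest 3-week sample for 5 genes in RPKM and for 14 after TMM normalization. The summed RPKM of the 5 translocon genes was 325, 376, 407 and 233 at 3 weeks, and that of the 5 chaperones and lectins was 773, 770, 621 and 712.

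Other genes of the ER were compared with the same test, in 10 lists that hold 137 genes outside the 33, of which 134 were tested. Of these 25 were higher and 19 lower (32.8% in all, the share found over all tested genes), and the median log2 fold change was 0.10. N-glycan trimming and the calnexin cycle had 4 rises and 0 falls among 11 tested genes in edgeR (1 fall at an unadjusted p-value under 0.05, 0 in DESeq2 and 2 in limma on log2(RPKM + 0.1)). Uggt2, a relative of the glycoprotein folding sensor, rose by 4.03 ± 0.41 SE on the log2 scale (adjusted p = 0.000366, edgeR), from 0.0443 to 0.1796 RPKM at 1 week to 0.952 to 1.83 RPKM at 3 weeks. Its 1-week levels were below the 1-week mean of Derl3 (0.651 RPKM), so the size of this rise is less certain. Os9, a lectin that delivers glycoproteins to HRD1, rose by 1.14. The other ERAD factors had 3 rises and 0 falls among 19 in edgeR, led by Rnf5 (0.85) and Fam8a1 (0.80), with 0 falls at an unadjusted p-value under 0.05 or in DESeq2 and 1 in limma on log2(RPKM + 0.1).

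The other ER oxidoreductases had 3 rises and 3 falls among 18. Qsox1, a sulfhydryl oxidase that is also secreted, rose from 10.1, 14.4, 14.4 and 12.9 RPKM to 57.9, 58.5, 51.7 and 45.6 RPKM, a log2 fold change of 2.22 ± 0.16 SE (adjusted p = 0.000164, edgeR). Gpx8 rose by 0.91, although 12.8% of its reads had a unique position, and Gpx7 and Prdx4 each fell by 0.87. Other chaperones and co-chaperones had 6 rises, led by Fkbp14 (1.94) and Cdnf (1.15), and 2 falls, Fkbp11 (-2.04) and Cnpy3 (-0.53), among 19. Fkbp14 and Fkbp11 encode prolyl isomerases of the ER, and they moved in opposite directions. Of the Cnpy3 reads 17.8% had a unique position.

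Signal recognition, translocon and signal peptidase genes had 3 rises and 2 falls among 20, with Sec62 (0.78) and Srp14 (0.71) higher and Spcs3 (-0.81), a signal peptidase subunit, and Srp68 (-0.64) lower. The oligosaccharyltransferase had 2 rises (Ost4 0.79 and Dad1 0.63) and 2 falls (Stt3b -0.53 and Rpn1 -0.39) among 12. Other stress transducers had 2 rises (Creb3 1.35 and Bax 0.66) and 2 falls (Creb3l4 -0.95 and Mbtps2 -0.53) among 11, and Ern2, the epithelial relative of Ern1, was listed at 0 in all samples. The COPII coat had 2 rises (Sec23a 0.81 and Sec31a 0.48) and 1 fall (Preb -0.38) among 12. With the preparation block (edgeR) N-glycan trimming had 4 rises and the other ERAD factors 3, whereas the oxidoreductases had 1 rise (Qsox1) and 1 fall (Prdx4) and the chaperones and co-chaperones 4 rises and 1 fall (Fkbp11). The stress transducers then had 1 rise (Creb3) and 0 falls (2 falls at an unadjusted p-value under 0.05). Signal recognition, translocon and signal peptidase genes then had 2 rises and 3 falls, and Srp14 did not pass (adjusted p = 0.0990, edgeR). The oligosaccharyltransferase and the COPII coat then had 0 calls, with 0 rises and 4 falls, and 3 rises and 1 fall, at an unadjusted p-value under 0.05. None of the 3 KDEL receptor genes passed in edgeR. At an unadjusted p-value under 0.05 and in DESeq2 the count was also 0, while 2 of the 3 were higher without replicate 4 at 3 weeks. Of the 29 genes that are the up to 2 largest rises and 2 largest falls of each list, 13 passed under every alternative tried. With each sample left out in turn, N-glycan trimming had 4 to 6 rises and the other ERAD factors 3 to 5, whereas the oxidoreductases had 1 to 5 rises and 0 to 2 falls, the chaperones and co-chaperones 2 to 7 rises and 2 to 4 falls, and the oligosaccharyltransferase 0 to 3 rises and 1 to 4 falls.

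**Figure D5:**
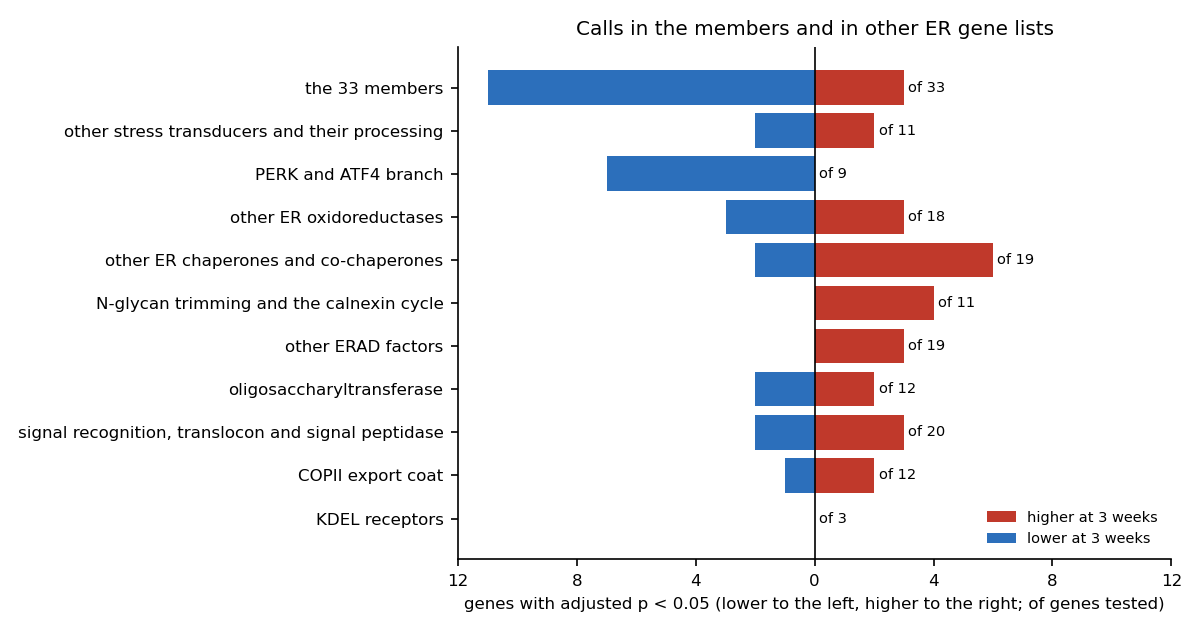
Number of genes with an adjusted p-value under 0.05 (horizontal axis, falls to the left and rises to the right of 0) among the 33 genes and in each of 10 other ER lists (vertical axis), with the number tested beside each bar. The 11 falls among the 33 genes and the 7 among 9 genes of the PERK and ATF4 branch stand beside lists with up to 6 rises.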

How the data were processed

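RNA of 8 KC samples was analysed, 4 cultured for 1 week and 4 for 3 weeks. The authors prepared poly(A) libraries, sequenced single reads and used the CLC Genomics Workbench (version 12, default RNA-seq settings) for mapping to GRCm38. The annotation release and any use of strand are not given in the sources used here. The deposited tables hold raw counts of reads per gene (total exon reads, unique exon reads, gene reads and intron reads). The authors also deposited RPKM values, written with decimal commas, in which exon reads are divided by exon length and sequencing depth. TPM values were not used.

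The 33 genes and the other lists were chosen with earlier results of these data known. All 33 are named, together with up to 2 largest rises and 2 largest falls past the threshold in each other ER list, and markers are given by counts and ranges, with some by name. Outside this rule stand the ERSE-bearing genes Adcy3, Alg12, Hnrnpa3 and Pan2 and further genes of the PERK branch, which were chosen after their values were seen.

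Exon reads of all genes were fitted with edgeR 4.0.16 in R 4.3.3 (filterByExpr, TMM, glmQLFit and glmQLFTest, all 8 samples, no pairing, since the study used unpaired tests and only 3 preparations occur at both times). P-values were adjusted by Benjamini-Hochberg over 12590 genes, and standard errors were derived from the F statistics. The procedure was run on simulated counts in which few genes changed and no preparation effect or outlying library was set. It was thus not tested for these features of the data. Alternatives were DESeq2 1.42.0, normalization to the upper quartile, at least 10 reads in every sample, no filter on low counts, unique exon reads, total gene reads, limma 3.58.1 on log2(RPKM + 0.1) or log2(RPKM + 1), blocks for the replicate number or the preparation, and each sample left out. Preparation numbers are those of the deposited file names (at 1 week 46, 47, 49 and 90 in the order of the replicates, and later 46, 49, 57 and 90). The pairing by preparation rests on these numbers and on the statement of the study that batches were shared, and deviations from the group means across genes correlated at -0.23, 0.20 and 0.25 within preparations 46, 49 and 90. Where the preparation block changed a call, its value stands beside the result. The use of 3 shared preparations without a block and the removal of genes of the mitochondrial genome were added after seeing the data. Any pair of replicates differed by more than sampling noise (a chi-square statistic of at least 15.4 per degree of freedom), and each counted once. Genes with reads in several places, or with an overlapping gene on the other strand, are less certain. Coordinates are those of the tables, and promoters are RefSeq's for GRCm38.p6. Figures were drawn with matplotlib 3.10.9 in Python 3.11.15.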

Additional observations from a re-analysis of the deposited data

Results flagged for a closer look

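In each group of 4 samples the RPKM of every gene was checked for a sample far from the other 3. The gap to the nearest sample, as a share of the range, exceeded Dixon's critical value for 6 of 66 gene and time combinations, where chance gives about 1 in 20. At 1 week these were Canx in replicate 1 (104 RPKM against 125 to 129), Creld2 in replicate 3 (32.0 against 41.8 to 42.5), Ern1 in replicate 2 (2.77 against 1.58 to 1.67), Syvn1 in replicate 4 (7.10 against 6.31 to 6.44) and Derl2 in replicate 1 (10.9 against 10.1 to 10.2). At 3 weeks it was Dnajb11 in replicate 3 (26.9 against 33.4 to 34.5), the library with many mitochondrial reads. Of these genes Creld2 and Syvn1 passed the test between the times. Creld2 kept its call without the low sample, and Syvn1 kept it without the high one.

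Reads on introns, which no comparison above uses, were few for these genes, and Ssr2 was an exception. It had 100 intron reads in replicate 4 at 1 week and 77 in replicate 4 at 3 weeks, against 1 to 9 in the other 6 samples. Both samples carry preparation number 90. Exon reads of Ssr2 in these samples were 107 and 53.9 RPKM.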

How the results depend on the processing

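Among the 14 genes past the threshold, 7 (Hspa5, Pdia6, Dnajb9, Sdf2l1, Creld2, Manf and Eif2ak3) passed under all 20 alternatives, and no called gene changed direction. Of the other 19 genes 9 passed in at least 1 alternative and 7 changed sign in at least 1, among them Canx, Pdia3, P4hb and Derl2 on the log2(RPKM + 0.1) scale. The number of genes lower at 3 weeks rose from 11 to 17 with limma on either RPKM scale, on which the median of all genes is lower. It was 8 with the replicate block, 6 with the preparation block of 3 shared preparations and 9 in the same samples without that block. The number of genes higher was 5 with the preparation block, 4 without it and 2 with the replicate block. Against the fit of all samples, the fit with the preparation block differed only in the calls of Hsp90b1, Pdia4, Derl3, Sec61a1, Ssr1, Ern1 and Wfs1. In the same samples without the block, Hsp90b1 and Derl3 had already lost their calls and Ern1 already passed. The calls of Pdia4, Sec61a1, Ssr1 and Wfs1 differed there with and without the block. With each sample left out in turn, 6 to 13 genes were lower, 2 to 4 were higher, and 3015 to 4861 of all genes passed. All genes that passed numbered 2867 with the replicate block and 4882 in DESeq2. They numbered 3109 with the preparation block and 3860 in the same samples without that block. Samples with the same replicate number did not deviate together (correlations of their deviations from the group means across genes of -0.23, -0.15, -0.15 and 0.25), so the replicate numbers were not treated as pairs. Not every sample correlated best with its own number. Removal of genes of the mitochondrial genome left the 14 calls as they were. Derl3, with 4 to 40 reads per sample, is limited by depth, and its call was lost with at least 10 reads required in every sample because it was then not tested.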
